A study of Mus musculus with 9 samples.

Results

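The SOX genes described here are Sox2, Sox4, Sox5, Sox6, Sox8, Sox9, Sox11, Sox12, Sox13 and Sox21. They were chosen by gene symbol, matched through the Ensembl identifiers of the count files, and make up 10 of the 47643 genes counted. RNA was sequenced from tumor cells sorted by FACS out of mouse pancreatic ductal adenocarcinomas (PDAC), in 9 libraries. The 6 control libraries held GFP+Yap+ cells of KPF mice, whose alleles included Trp53 frt/+, Pdx1-Flp and R26 FSF-CreER/Dual. The 3 other libraries held Tm+Yap− cells of KPYYF mice, which carried the same alleles and Yap flox/flox. Mice received a tamoxifen diet after tumors had become palpable, so that CreER removed the EGFP of the Dual reporter, switched on tdTomato (Tm) and, in KPYYF mice, deleted Yap. The sorted GFP+ cells of KPF mice had kept EGFP, and the Tm+ cells of KPYYF mice came from nodules that had regrown under tamoxifen. Yap status, genotype, reporter color and origin from regrown nodules changed together between the groups and cannot be told apart. The Flp that activated CreER was driven by Pdx1, a gene of the pancreatic lineage. The age of each mouse was not given in the labels.

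SOX proteins are transcription factors that bind the minor groove of DNA through an HMG box and bend it. The family is divided into groups by the similarity of this box: Sox2 is a SOXB1 factor of pluripotent and foregut progenitor cells, Sox21 a related SOXB2 repressor, Sox4, Sox11 and Sox12 form SOXC, Sox5, Sox6 and Sox13 form SOXD, and Sox8 and Sox9 belong to SOXE. In the pancreas, Sox9 marks the progenitors of the embryo and the ducts of the adult, and Sox4 takes part in endocrine differentiation.

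The HMG box is the stretch that places these genes in one family, and 2 pairs of close relatives are shown because their counts between the groups did not go together. Each sequence is the 210 bases of coding sequence, 70 codons, that begin 2 codons before the most conserved motif of the box, read 5′ to 3′ on the coding strand from GENCODE M21 transcripts on GRCm38. Capitals mark the bases of the second gene that differ from the first.
Sox2: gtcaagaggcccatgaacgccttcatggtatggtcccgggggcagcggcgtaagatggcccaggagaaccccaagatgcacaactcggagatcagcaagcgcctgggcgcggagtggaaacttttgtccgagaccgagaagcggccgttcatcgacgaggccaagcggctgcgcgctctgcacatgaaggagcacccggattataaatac
Sox21: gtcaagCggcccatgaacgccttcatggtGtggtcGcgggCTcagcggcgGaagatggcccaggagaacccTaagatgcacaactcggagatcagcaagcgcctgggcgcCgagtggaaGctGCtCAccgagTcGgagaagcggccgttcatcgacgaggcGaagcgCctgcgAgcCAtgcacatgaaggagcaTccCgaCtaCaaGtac
Sox5: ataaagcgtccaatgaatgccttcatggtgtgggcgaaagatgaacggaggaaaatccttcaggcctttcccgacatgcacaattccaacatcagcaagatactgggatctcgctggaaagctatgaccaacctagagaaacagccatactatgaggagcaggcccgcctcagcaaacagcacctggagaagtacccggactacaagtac
Sox6: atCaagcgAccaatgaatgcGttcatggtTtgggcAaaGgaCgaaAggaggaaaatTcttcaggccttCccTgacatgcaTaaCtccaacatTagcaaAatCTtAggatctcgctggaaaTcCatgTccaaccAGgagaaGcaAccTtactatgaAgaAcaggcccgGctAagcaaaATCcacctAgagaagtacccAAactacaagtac
The Sox2 stretch lies at chr3:34650542-34650751 on the plus strand and the Sox21 stretch at chr14:118235405-118235614 on the minus strand, each within a single coding exon. They differed at 25 of 210 bases, and 66 of 70 codons gave the same residue. The Sox5 stretch spans chr6:143835309-143841279 and the Sox6 stretch chr7:115486661-115489768, both on the minus strand and each joined from 2 coding exons. They differed at 36 bases, with 65 of 70 codons giving the same residue. Across groups the boxes were further apart, with 80 differing bases between Sox2 and Sox5. The other pairs within a group were Sox4 and Sox11, with 20 differing bases, Sox8 and Sox9, with 29, Sox4 and Sox12, with 30, Sox5 and Sox13, with 31, Sox11 and Sox12, with 33, and Sox6 and Sox13, with 36. The reads of these libraries come from the 3′ end of transcripts, not from the box.

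Each library had 8116539 to 9635514 reads on genes, and a count of 3 reads, taken as the limit of detection, corresponded to 0.292 to 0.437 CPM (counts-per-million values, with library sizes scaled by TMM, an adjustment for a few dominant transcripts). Yap1 lay between 41.8 and 151 CPM in the KPF libraries, and at 0.712, 2.84 and 7.12 CPM in KPYYF libraries 4449, 4891 and 4938. Whether the counted 3′ end reads lie within the deleted part was not given in the sources used here. KPF libraries 4504h and 4504s share the stem of a mouse number, and nothing else says that each library came from a separate animal, so p-values measure the spread between these libraries. The X-inactivation transcript Xist had 71 to 159 reads in KPF libraries 4269, 4515 and 4601, 5878 to 10933 in the other 3 KPF libraries and 3452 to 16108 in the KPYYF libraries. The 8 epithelial markers were all detected in each library, with a summed level of 3206 to 11071 CPM in KPF and 560 to 1850 CPM in KPYYF libraries, which did not overlap. The summed level of 10 fibroblast markers was 417 to 5540 CPM in KPF libraries. It was 1399, 3321 and 1235 CPM in KPYYF libraries 4449, 4891 and 4938, within the KPF range. The part of fibroblasts in the SOX values was not tested. Acinar markers reached 19976 CPM in KPF library 4504s and 5943 CPM in KPYYF library 4449, and immune markers 7599 CPM in KPF library 4601. In sorted bulk cells, fewer expressing cells and less RNA per cell cannot be told apart.

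Sox2 and Sox5 had the largest positive differences among the SOX genes and Sox6 the largest negative one, while Sox4 and Sox9, the most abundant, were present in all 9 libraries. Genes with at least 100 reads over all libraries were tested, which kept 9 of the 10 and left out Sox8. By the quasi-likelihood test of edgeR, with Benjamini-Hochberg correction across 14105 genes, 0 of the 9 had an adjusted p under 0.05, against 0.305% of all tested genes that were higher and 0.794% that were lower in KPYYF. The DESeq2 Wald test called 1 SOX gene higher (Sox5) and 1 lower (Sox6), where it called 269 genes higher and 928 lower of all 14105, and limma-voom called 0 SOX genes. In simulated counts, 31.4% of the genes called by DESeq2 had no set change, against 3.45% in edgeR and 2.94% in limma-voom. There edgeR recovered 19.8% of 4-fold and 68.4% of 16-fold changes, so a gene not called may still differ. At an unadjusted p under 0.05, 4 of the 9 passed in edgeR, with Sox2 and Sox5 higher and Sox4 and Sox6 lower. That threshold was passed by 16.1% of all tested genes in either direction. With a more than 2-fold change added, the rule of the study's methods, 2 SOX genes were higher and 1 was lower, against 4.20% and 9.20% of all tested genes. Sox2 and Sox5 were picked out by the study on these same libraries, so their direction here is not independent evidence. Of the 9 genes, 3 had a positive and 6 a negative log2 fold change, and their median was -0.45, beside -0.07 over all genes tested.

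**Figure D1:**
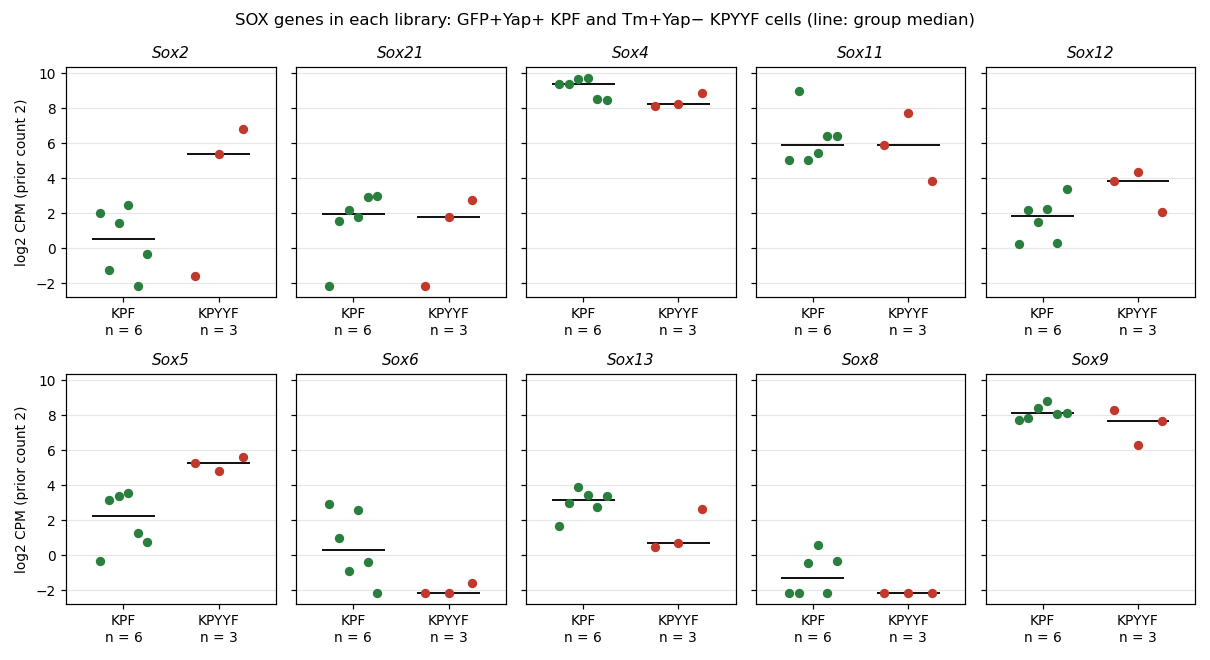
Level of each SOX gene in each library as log2 CPM with a prior count of 2 (vertical axis), for 6 KPF libraries (green) and 3 KPYYF libraries (red), with a line at the group median. Sox5 is the gene whose KPYYF libraries all lie above the KPF libraries, Sox2 is high in only 2 KPYYF libraries, and Sox4 and Sox9 have the highest medians in both groups.

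Sox2 (ENSMUSG00000074637), which maintains pluripotent and progenitor cells, lies at chr3:34650405-34652461 on the plus strand as a gene of 1 exon. In KPF libraries it ranged from 0 to 5.24 CPM with a median of 1.52 CPM, or 0 to 46 reads. In the KPYYF libraries it stood at 0.119 CPM in 4449, a single read, at 41.1 CPM in 4891 and at 112 CPM in 4938, or 376 and 1025 reads. Libraries 4891 and 4938 were far above all KPF libraries, and 4449 was below 5 of the 6, so the groups overlapped. The difference was 4.62 on the log2 scale (standard error 1.46, 95% interval 1.36 to 7.87, edgeR adjusted p = 0.161). Without KPYYF library 4449 it was 5.20 (adjusted p = 0.0524), and without 4938 it was 3.31 (unadjusted p = 0.0573). Over the 17 alternatives the adjusted p was 0.0524 to 0.468.

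Sox2 lies inside the long noncoding gene Sox2ot on the same strand, without a shared exon base. Sox2ot had 33 reads in all, of which 8 were in KPYYF library 4938, 18 in KPF library 4515 and 7 in 4504s. The summed level of 8 markers of Schwann cells and glia, a lineage that also uses Sox2, was 12.4 to 26.2 CPM in KPYYF and 115 to 353 CPM in KPF libraries. Of these markers Foxd3 and Gfap had no read in any library, and neither had Sox10, the SOXE factor of that lineage. The sort kept GFP+ or Tm+ cells, and the part of such cells in the Sox2 values was not tested. Of the other SOXB1 genes, Sox3 had 5 reads in KPYYF library 4891 and 4 in 4938 and none elsewhere, just above the limit of detection, and Sox1 had none.

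Sox21 (ENSMUSG00000061517, chr14:118233232-118237030), the SOXB2 relative with the box shown above, did not share this pattern. It ranged from 0 to 7.73 CPM in KPF libraries (median 3.74) and was at 0, 3.28 and 6.69 CPM in KPYYF libraries 4449, 4891 and 4938. The KPYYF values lay within the KPF range. Its log2 fold change was -0.34, with an interval from -3.61 to 2.94 that allows a large change either way (edgeR adjusted p = 0.949). KPYYF library 4449 and KPF library 4269 had no Sox21 read, and without 4449 the value was 0.24. Sox21 shares 713 exon bases with Gm4675 on the opposite strand, which had 42 reads, 18 of them in KPYYF library 4938. The strand setting of the counting was not given in the sources used here, so reads of the 2 genes in this overlap cannot be told apart. Over the 9 libraries, log2 CPM of Sox21 and Sox2 had a Pearson r of 0.18.

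Sox5 (ENSMUSG00000041540) encodes a SOXD factor that lacks a transactivation domain of its own and works with partners such as Sox9 in cartilage. The gene spans chr6:143828425-144781977 on the minus strand. KPF libraries ranged from 0.584 to 11.4 CPM with a median of 5.41 CPM. KPYYF libraries held 38.9 CPM in 4449, 28.4 CPM in 4891 and 48.4 CPM in 4938, or 260 to 442 reads. Every KPYYF library lay above the highest KPF library, and Sox5 was the 1 SOX gene of the 9 without overlap. Among all tested genes, 3.92% were free of overlap in this direction, and 5.18% in the opposite one.

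The log2 fold change of Sox5 was 2.75 (standard error 0.76, 95% interval 1.11 to 4.38), with an unadjusted p of 0.00299 and an adjusted p of 0.102 in edgeR. This adjusted p was 0.0122 with DESeq2 and 0.0390 in edgeR without the filter on low counts, and it lay between 0.0122 and 0.243 over the 17 alternatives. Within KPF, Sox5 was between 8.61 and 11.4 CPM in the 3 libraries with many Xist reads and between 0.584 and 2.21 CPM in the 3 with few. All KPYYF libraries had many, and against the 3 KPF libraries of that kind alone the log2 fold change of Sox5 was 1.95 (edgeR, unadjusted p = 0.00212, adjusted p = 0.152). These 3 KPF libraries include 4504h and 4504s, which share the stem of a mouse number and may not be separate animals. Sox5 and the antisense gene Sox5os1 share 1330 exon bases, and the antisense gene had no read.

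Sox6 (ENSMUSG00000051910, chr7:115470872-116038796), the SOXD relative of Sox5 that acts beside it in cartilage and also in erythroid and muscle cells, was almost without reads in KPYYF cells. It had 0 to 75 reads in the KPF libraries, or 0 to 7.30 CPM with a median of 1.15 CPM. In the KPYYF libraries it had no read in 4449 and 4891 and 1 read in 4938. The groups overlapped, since KPF library 4601 also had none, and the reads of KPF libraries 4269 and 4504s, 75 and 51, made up most of the 151. As depth-scaled sums of reads, the KPF level was 74.0-fold the KPYYF level, with a counting interval of 13.1 to 2940 that rests on that 1 read. The edgeR unadjusted p was 0.0294 and the adjusted p 0.243, and DESeq2 gave an adjusted p of 0.0481, the lowest of 15 alternatives that reached up to 0.464. The unadjusted p of Sox6 was 0.0578 without KPF library 4504s, 0.0726 and 0.0774 without KPYYF library 4449 or 4891 and 0.133 with limma-voom, and without KPF library 4269 too few reads were left for a test. Over the 9 libraries Sox6 and Sox5 had a Pearson r of -0.47 in log2 CPM, and within the 6 KPF libraries it was 0.01.

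Sox13 (ENSMUSG00000070643, chr1:133382303-133424377), the third SOXD gene, ranged from 3.02 to 14.6 CPM in KPF (median 8.94) and was at 1.19, 1.42 and 6.14 CPM in KPYYF libraries 4449, 4891 and 4938. Libraries 4449 and 4891 were below all KPF libraries and 4938 was within their range. KPYYF minus KPF came to -1.58 on the log2 scale (standard error 0.90, interval -3.52 to 0.35, edgeR adjusted p = 0.419). Without 4938 it was -2.74 (edgeR adjusted p = 0.286). Of the 3 SOXD genes, whose boxes differ from each other at 31 to 36 bases, Sox5 thus had a positive estimate and Sox6 and Sox13 negative ones, and the fitted -5.70 of Sox6 rests on 1 read in the KPYYF libraries.

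**Figure D2:**
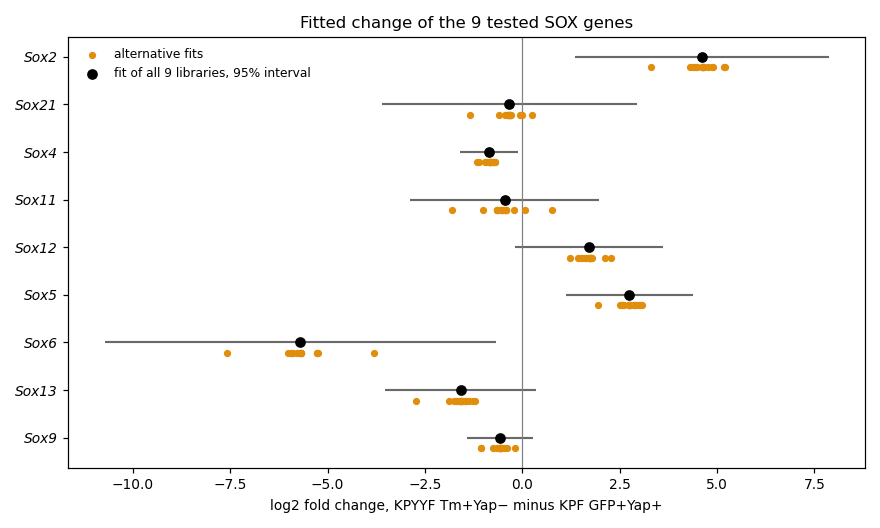
Fitted log2 fold change of the 9 tested SOX genes, KPYYF minus KPF (horizontal axis), with black points and 95% intervals from the fit of all 9 libraries and orange points from each alternative fit. The intervals of Sox2, Sox5, Sox4 and Sox6 leave out 0, and the alternatives of Sox11 and Sox21 fall on both sides of it.

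Sox4 (ENSMUSG00000076431, chr13:28948919-28953713), a SOXC factor linked to progenitor survival and to the response to TGF-beta, had the most reads of the family. KPF libraries ranged from 359 to 855 CPM with a median of 679 CPM, and the KPYYF libraries stood at 275, 305 and 467 CPM. Libraries 4449 and 4891 were below every KPF library, and 4938 was above KPF libraries 4515 and 4601. The log2 fold change was -0.85 (standard error 0.34, interval -1.59 to -0.11), with an unadjusted p of 0.0276 and an adjusted p of 0.235 in edgeR. The unadjusted p was above 0.05 in 5 of 17 alternatives, at 0.0540 with KPF libraries 4504h and 4504s summed, 0.0541 and 0.0685 without 4504h or 4504s, and 0.103 and 0.0922 without KPYYF library 4449 or 4891. Sox4 shares 2616 exon bases with Gm26735 on the opposite strand, which had 7 reads.

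Sox11 (ENSMUSG00000063632, chr12:27334264-27342574), the SOXC gene with the box closest to that of Sox4, varied widely within both groups. It ranged from 33.3 to 505 CPM in KPF with a median of 63.6 CPM, and was at 60.3, 211 and 14.4 CPM in KPYYF libraries 4449, 4891 and 4938. Its highest library was KPF 4435 and its lowest KPYYF 4938, and the groups overlapped. The log2 fold change of -0.45 had an interval from -2.89 to 1.98 (edgeR adjusted p = 0.893), and it was 0.78 without KPF library 4435. The high Sox11 of KPF library 4435 was accompanied by 27.4 CPM of Sox17, against at most 5.98 CPM in the other KPF libraries.

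Sox12 (ENSMUSG00000051817, chr2:152393611-152398063), the least studied SOXC gene, ranged from 0.973 to 10.2 CPM in KPF (median 3.48) and was at 14.4, 20.3 and 4.05 CPM in KPYYF libraries 4449, 4891 and 4938. Libraries 4449 and 4891 were above all KPF libraries, and 4938, the library with the most Sox2 and Sox5, was within their range. For Sox12 the log2 fold change was 1.71 (standard error 0.88, interval -0.20 to 3.62, edgeR adjusted p = 0.368). Sox4 and Sox12 had a Pearson r of -0.55 over the 9 libraries and -0.07 within KPF.

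Over all tested genes, 16.1% had an unadjusted p under 0.05 in edgeR. Of 4 genes listed as downstream of SOXC factors and tested, 0 had an adjusted p under 0.05 in edgeR and 0 an unadjusted one, and their median log2 fold change was 0.06. They ran from Ezh2, the methyltransferase of the Polycomb complex, at -0.45, to Tubb3, a tubulin of neurons, at 0.93 (edgeR adjusted p = 0.655 and 0.490).

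Sox9 (ENSMUSG00000000567, chr11:112782224-112787760 on the plus strand), the SOXE factor of pancreatic progenitors and duct cells, ranged from 210 to 444 CPM in KPF with a median of 276 CPM. KPYYF libraries held 319 CPM in 4449, 78.2 CPM in 4891 and 205 CPM in 4938. Library 4449 was within the KPF range, 4891 was well below it and 4938 just under its lower end. The log2 fold change was -0.56 (standard error 0.39, interval -1.41 to 0.29, edgeR adjusted p = 0.532). It was -1.06 without library 4449, with an adjusted p of 0.226, and -0.18 without 4891, so the estimate depended on which of these KPYYF libraries was kept. Sox8 (ENSMUSG00000024176, chr17:25565892-25570686), the closest relative of Sox9, had 20 reads in all. They were in KPF libraries 4504h, 4504s and 4601, with 5, 11 and 4 reads, and no other library had any. Sox8 shares 329 exon bases with an antisense gene that had no read.

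While Sox9 itself did not pass the test, 17 of 19 tested genes of the duct programme in which it acts had negative estimates. Of 19 tested genes of this list, 4 had an adjusted p under 0.05 in edgeR and all 4 were lower, 11 were lower by the unadjusted rule with a 2-fold change and 0 were higher by it, and 6 were below all KPF libraries without overlap. Over all tested genes these 3 kinds of lower gene made up 0.794%, 9.20% and 5.18%. The median log2 fold change of the list was -2.56, or -2.55 with the gene without KPYYF reads at its bound. Foxa2, a forkhead factor of endoderm, had a KPF range of 32.7 to 180 CPM (median 78.9). In order of size, the KPYYF libraries held 4.27, 5.47 and 7.01 CPM of Foxa2, a fall of 3.97 on the log2 scale (SE 0.60, edgeR adjusted p = 0.0141). The study had already reported Foxa2 and genes of epithelial differentiation as lower in these same libraries. The direction of Foxa2 and of this list is therefore not independent evidence. Cftr, the chloride channel of duct cells, fell by 3.80 on the log2 scale, and the apical mucin Muc1 fell by 4.11 (edgeR adjusted p = 0.0357 and 0.0422). Fgfr2, a receptor for FGF ligands of the mesenchyme, had 540 reads in KPF and 2 in KPYYF libraries, a ratio of 132 between depth-scaled sums with a counting interval of 36.4 to 1095 (edgeR adjusted p = 0.0292).

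The largest fitted fall of this list was that of Sctr, the secretin receptor, which had 100 reads in KPF and none in KPYYF libraries with an edgeR adjusted p of 0.259. It was at least 5.85-fold lower, but 72 of the reads were in KPF library 4504s, and without it the bound was 2.16-fold. The largest positive value was 0.75, for Spp1 (edgeR adjusted p = 0.597). The epithelial markers, of which Krt7 and Krt19 are also in the duct list, were lower in the same libraries, as given above, and Krt18 and Cdh1 had an adjusted p under 0.05 in edgeR. Their part in the duct result was not tested. Without KPYYF library 4891 or 4938 no gene of the SOX-related lists was called lower in edgeR, without KPF library 4435 or 4504s 1 was, without 4515 2 were, and without KPYYF library 4449 7 were. The DESeq2 Wald test called 9 and limma-voom 3.

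**Figure D3:**
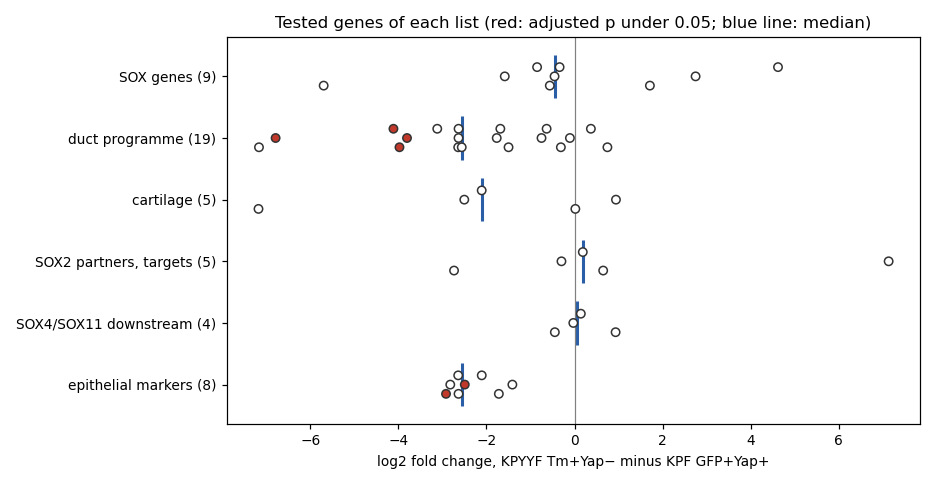
Log2 fold change, KPYYF minus KPF (horizontal axis), of the tested genes of 6 lists, with the number tested in parentheses, red points for an adjusted p under 0.05 in edgeR and a blue line at the median. The SOX genes lie on both sides of 0 with a median of -0.45, and the duct list lies mostly below 0 with a median of -2.56.

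In cartilage, Sox9 acts with Sox5 and Sox6 on matrix genes, and of 14 such genes only 5 had enough reads to be tested. In edgeR 0 of the 5 had an adjusted p under 0.05, and the median was -2.11. With an unadjusted p under 0.05 and a 2-fold change, 1 was lower, against 9.20% of all tested genes. The gene past the unadjusted rule was Col11a2, a fibrillar collagen of cartilage, with 109 reads in KPF and none in KPYYF libraries. It was at least 5.89-fold lower (edgeR adjusted p = 0.243), but KPF libraries 4269 and 4435 also had no read. The reads of KPF libraries 4504h and 4515, 46 and 45, made up most of the 109. Without 4504h the bound was 4.28-fold, and without 4515 it was 4.11-fold. The largest positive value was 0.94, for Col11a1 (edgeR adjusted p = 0.780), and Col9a1, Hapln1 and Matn1 had no read in any library. Of 14 partners and targets of Sox2 in embryonic cells, 5 were tested and 0 passed an adjusted p of 0.05 in edgeR. Over all tested genes, 0.305% were higher and 0.794% were lower at that threshold. Lin28b, a blocker of let-7 processing, had 1 read in KPF and 121 in KPYYF libraries, with an edgeR adjusted p of 0.0514. In order of size, the KPYYF libraries held 2.74, 4.99 and 5.90 CPM of Lin28b, all above the KPF libraries. Lin28b was also high in library 4449, where Sox2 had 1 read. The largest negative value was -2.74, for Pou3f1 (edgeR adjusted p = 0.520), and Pou5f1, Sall4, Utf1, Fgf4 and Zfp42 had no read. Of the untested genes, Nanog had 51 reads, all in KPYYF library 4449, and Pou3f2 had 80 reads in KPF and none in KPYYF libraries. Of the other SOX genes, only Sox17, an endoderm and endothelium factor, reached 100 reads, and its log2 fold change was -1.10 (SE 1.77, edgeR adjusted p = 0.830).

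Because the libraries count about 1 read for each captured 3′ end, levels of different SOX genes can be set side by side in CPM without dividing by length. Together the 10 genes held 745 to 1444 CPM in KPF and 689 to 864 CPM in KPYYF libraries, ranges that overlap. Sox4 took the largest share of all SOX reads in 8 of the 9 libraries, from 44.2% to 72.2% of them. In KPYYF library 4449 Sox9 came first with 44.2% and Sox4 second with 38.2%. Sox11 was second in KPF library 4435 with 34.3% and in KPYYF library 4891 with 30.7%, and Sox9 was second in the other 6. Sox5 took 4.12% to 5.60% of SOX reads in the KPYYF libraries and at most 0.820% in KPF libraries. Sox2 took 13.0% in KPYYF library 4938 and 5.96% in 4891, but 0.0165% in 4449 and at most 0.417% in KPF libraries. The KPYYF libraries therefore differed among themselves in their SOX make-up: Sox9 led in 4449, Sox11 was high in 4891 and Sox2 in 4938, and Sox5 was above the KPF range in each of them.

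**Figure D4:**
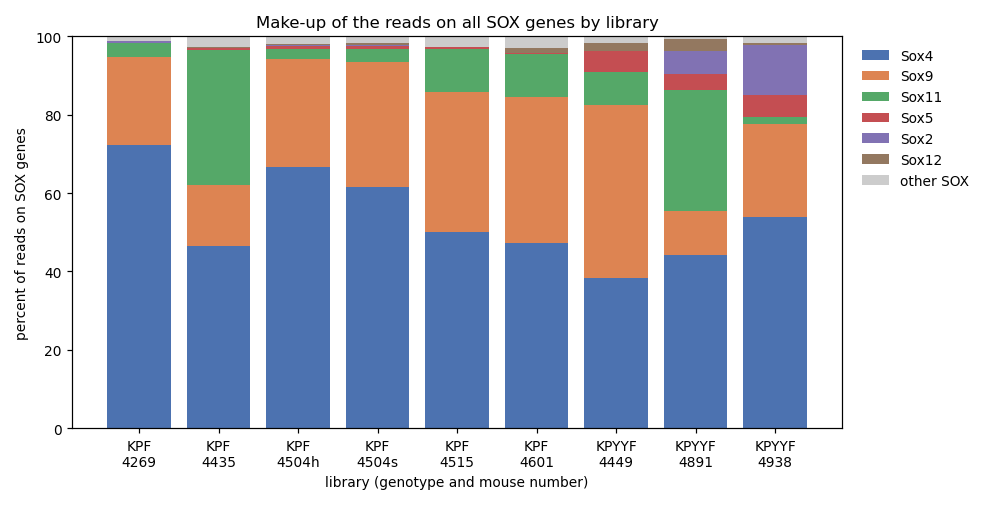
Share of the reads on all SOX genes (vertical axis, percent, from 0) taken by each gene in each of the 9 libraries. Sox4 is the largest share except in KPYYF library 4449, and Sox2 makes a visible share in KPYYF libraries 4891 (5.96%) and 4938 (13.0%).

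The genes with the pattern most like that of each tested SOX gene were found by the Pearson r of log2 CPM over the 9 libraries, among 12560 tested genes with a mean of at least 1 CPM. These values are descriptions of 9 points that share libraries and group differences. Sox5 was most like Ube2c (r = 0.98), Top2a (0.98) and Eif5a (0.97), of which the first 2 are genes of dividing cells. Sox2 was most like Rcor2, a chromatin corepressor (0.95), and Rarres1 (0.95). Sox4 was most like Calca (0.93), Barx1 (0.93) and the Notch ligand Jag1 (0.91), and Sox6 like Nell2 (0.93), Calca (0.92) and Ror1 (0.92). Calca stood in both lists, and Sox4 and Sox6 had the highest r of all pairs of tested SOX genes over the 9 libraries, 0.76. Within KPF their r was 0.62, and the highest there was 0.78, for Sox13 and Sox21. Sox9 was most like Tmem79 (0.96), Parp11 (0.95) and Fstl3 (0.94), Sox11 like Endov (0.93), Cog1 (0.92) and Egfl8 (0.92), and Sox12 like Ngdn (0.92), Dffb (0.92) and Txndc16 (0.92). For Sox13 they were Jade3 (0.96), mt-Ti (0.96) and Cers5 (0.94), and for Sox21 Zdhhc18 (0.98), Srrd (0.97) and Gpaa1 (0.97).

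Yap acts on DNA through TEAD factors, whose core motif GGAATG was searched on both strands of the 300 bases around the start sites in RefSeq (GRCm38.p6). It occurs in 14.7% of 32851 such promoters. Sox5 held 2 matches, both before the start, Sox4 held 1, and Sox6 held a match at 2 of its 6 starts. The Sox5 stretch searched, chr6:143947057-143947356, lies inside the gene, far from its 5′ end at 144781977. No stretch at that end was searched, and which start these cells use was not tested. The other SOX promoters in the table had none, and Sox9 had no entry. The SOX motif AACAAT, found in 10.7% of promoters, was matched at 1 of the Sox6 starts, and the AP-1 motif TGANTCA, found in 7.81%, at none. These matches describe letters and not binding.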

How the data were processed

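RNA of sorted cells, GFP+Yap+ from KPF (6 libraries) and Tm+Yap− from KPYYF mice (3 libraries), was made into 3′ end libraries with the QuantSeq Forward kit. The authors deposited raw read counts per Ensembl gene, 1 file a library, without normalization. Per the submitters' processing notes the tools were STAR and HTSeq and the build mm10. Their versions, the annotation and the strand setting were not given in the sources used here, and the methods section of the study instead describes BeadChips, a filter on a sum of 100 reads and DESeq2. Genes took 38.5% to 42.0% of the reads in KPF and 37.3% to 38.2% in KPYYF libraries. Reads without a unique alignment took 43.8% to 48.5% in KPF and 49.2% to 53.4% in KPYYF libraries. In both measures the groups did not overlap, and the part of this difference in the SOX values was not tested. The summary lines for unassigned reads were left out of library sizes.

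Of 47643 identifiers, 47224 were matched to a symbol in GENCODE M21. Genes with at least 100 reads in all (14105) were normalized by TMM and tested with the quasi-likelihood method of edgeR 4.0.16 in R 4.3.3 with robust estimation, without covariates. P-values are two-sided, and adjustment was by Benjamini-Hochberg across the tested genes, called under 0.05. Folds against groups without reads were computed against 3 counts per library, and counting intervals and limits of detection cover counting error only. Depth was 8116539 to 9635514 reads on genes. Alternatives were DESeq2 1.42.0, limma-voom (limma 3.58.1) with quality weights, RLE and upper quartile scaling, no filter, filterByExpr, 4504h and 4504s summed, the 6 libraries with at least 1000 Xist reads, and each library left out. The code was tested on simulated counts with set 4-fold and 16-fold changes. Of the 4-fold changes, edgeR and limma-voom each recovered 19.8% and DESeq2 39.6%. Among the genes called by DESeq2, 31.4% had no set change.

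The SOX genes and all lists were chosen with earlier results of these data known. Every SOX gene was named, and of the related lists every called gene and the largest rise and fall, with any further SOX gene of at least 100 reads and the 3 genes of highest r for each tested SOX gene. Cell type markers, listed genes of few or no reads, SOX genes of few reads and overlapping genes were named after their values were seen. Some items, among them 1 allele, single marker genes and 1 gene of high r, are not reported here.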

Additional observations from a re-analysis of the deposited data

Results flagged for a closer look

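In 2 of the SOX genes, 1 KPF library stood apart from the other 5 by Dixon's criterion on log2 CPM with a prior count of 2. For normally distributed values, chance meets this criterion in about 1 in 20 groups. The share of all tested genes that meets it in KPF was not computed, so the 2 genes are only a description. Sox11 was at 505 CPM in KPF library 4435, and the gap to the next library made up 0.658 of the group's range on that scale and 0.891 in CPM. Sox21 was at 0 CPM in KPF library 4269, with a gap of 0.727 of the range in log2 CPM, where a library without reads is placed by the prior count. In CPM it was 0.358, which does not meet the criterion. The 3 KPYYF libraries are too few for this criterion.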

How the results depend on the processing

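No paired analysis was possible because the labels give no replicate numbers shared between the groups. SOX genes with an adjusted p under 0.05 were 0 higher and 0 lower in edgeR. The DESeq2 Wald test called 1 higher and 1 lower, edgeR without the filter on low counts called 1 higher, and each library left out in turn gave 0 to 0 in both directions. By the unadjusted rule with a 2-fold change, 2 SOX genes were higher, and 2 to 3 with a library left out. With limma-voom, and in the 6 libraries with at least 1000 Xist reads, only 1 (Sox5) was higher. Sox12 was added without KPF library 4601, and it took the place of Sox2 without KPYYF library 4938. By the same rule, 1 was lower (Sox6, but Sox9 with limma-voom and without KPYYF library 4449, and Sox4 in the libraries with at least 1000 Xist reads), with 0 to 3 when a library was left out (0 without KPF library 4269 or 4504s or KPYYF library 4891, 3 without KPYYF library 4938). Of the SOX-related lists, 0 genes were called higher, but 1 with DESeq2 and 1 with filterByExpr, and 0 to 0 with a library left out. 4 were called lower, but 9 with DESeq2, 1 in the libraries with at least 1000 Xist reads, and 0 to 7 with a library left out. Fitted values changed sign for Sox11, at 0.78 without KPF library 4435 and 0.06 without KPYYF library 4938 (range -1.81 to 0.78 with a library left out), and for Sox21, at 0.24 without KPYYF library 4449 (range -1.35 to 0.24). The cause was not tested. Sox2 and Sox5 were positive in all 17 alternatives, with 3.31 to 5.20 and 1.95 to 3.09 on the log2 scale, and Sox5 had an unadjusted p under 0.05 in all 17 and Sox2 in 14. Over all genes tested, 43 were called higher and 112 lower. These counts were 8 and 15 without KPYYF library 4891, 11 and 13 without 4938, 75 and 198 without 4449, 6 and 25 without KPF library 4435, 6 and 31 in the libraries with at least 1000 Xist reads, and 269 and 928 with DESeq2. Without the filter, the median of all genes was -0.31. Sox6, Sox11 and Sox21 had wide intervals, and Sox8 had too few reads for a test.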
